A study of Mus musculus with 8 samples.

Results

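Genes of interleukin-6 (IL-6) type signalling, 10 in number, were followed through mouse liver: the receptor chains Il6ra, Il6st and Osmr, the transcription factor Stat3, the co-factor Bcl3, the brakes Socs1 and Socs3, the kinases Pim1 and Pim3, and the interleukin-15 receptor chain Il15ra. They are 10 of 48323 gene symbols listed in the deposited table and were taken by name. Pim1, Pim3 and Il15ra were selected on their measured levels, which stood higher with fine particulate matter (PM2.5) in the light/dark cycle, so all values from that contrast are given as a description, without a test. Livers came from wild-type C57BL/6 mice after 30 weeks of exposure, and every group shared this strain, genotype and duration. The groups were a light/dark cycle with filtered air (LD-FA), a light/dark cycle with PM2.5 (LD-PM2.5), constant light with filtered air (LL-FA) and constant light with PM2.5 (LL-PM2.5), with 2 libraries in each of the 4 groups. The age and sex of the mice and the time of day at which livers were taken were not given in the sources used here. Whether both libraries of a group came from different animals is not stated in the labels, and p-values therefore measure only the spread between these samples, which may be technical.

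Cytokines of the IL-6 family bind a receptor chain of their own, such as IL-6R or OSMR, and signal through the shared chain gp130, the product of Il6st. Janus kinases bound to gp130 then phosphorylate STAT3, which moves into the nucleus and, in hepatocytes, switches on acute phase proteins together with SOCS3, a protein that shuts the receptor complex down again. Pim kinases are active as soon as they are made, so their amount is set largely by transcription, for which STAT factors are a well-known input.

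The libraries held 22085740 to 31696337 estimated fragments. Levels are given as FPKM, fragments scaled to transcript length and to the depth of the library. Hepatocyte markers such as Apoa1 and Ttr summed to between 13908 and 19012 FPKM in every library, and 6 of the 7 were measured. Transcripts of neighbouring tissue varied between libraries of 1 group: the sum of the pancreas markers was 3307 FPKM for LD-FA replicate 1, 326 for LL-PM2.5 replicate 2, 118 for LD-PM2.5 replicate 1 and 17.8 to 34.7 elsewhere, and that of the muscle markers 510 for LL-FA replicate 1, 269 and 30.8 for the LD-FA pair and at most 1.3 elsewhere. Adipocyte markers summed to 84.9 FPKM in LL-FA replicate 1 and to 12.5 to 18.3 elsewhere. In bulk liver, fewer cells of a type and less RNA per cell cannot be told apart. Tests used edgeR on the 11316 genes that reached 1 FPKM in at least 2 libraries, with Benjamini-Hochberg adjustment over all of them and a threshold of 0.05. Of the 10 genes 8 were tested; Osmr reached 1 FPKM in no library and Socs1 in 1.

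Most of the 10 genes had their highest mean in LD-PM2.5. In the light/dark cycle both PM2.5 libraries lay above both filtered-air libraries for 8 of the 10 genes, beside 24.6% of all tested genes. They were the 3 receptor chains, Stat3, Socs3, both Pim kinases and Il15ra. Among them Osmr was too low to be tested. Both Pim kinases and Il15ra were selected on this contrast. In constant light both PM2.5 libraries lay above both filtered-air libraries for Osmr and Il15ra alone, beside 9.65% of all tested genes. There Pim1, Pim3, Il6ra, Il6st and Stat3 had log2 fold changes between -0.16 and 0.09. Constant light itself went with less Stat3 and less Bcl3. For both genes all 4 constant-light libraries lay below all 4 light/dark libraries, as for 1.56% of all tested genes. This comparison of 4 against 4 libraries was added after the levels had been seen. None of the differences tested passed edgeR's adjusted threshold with the filter on low values and all 8 libraries.

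**Figure D1:**
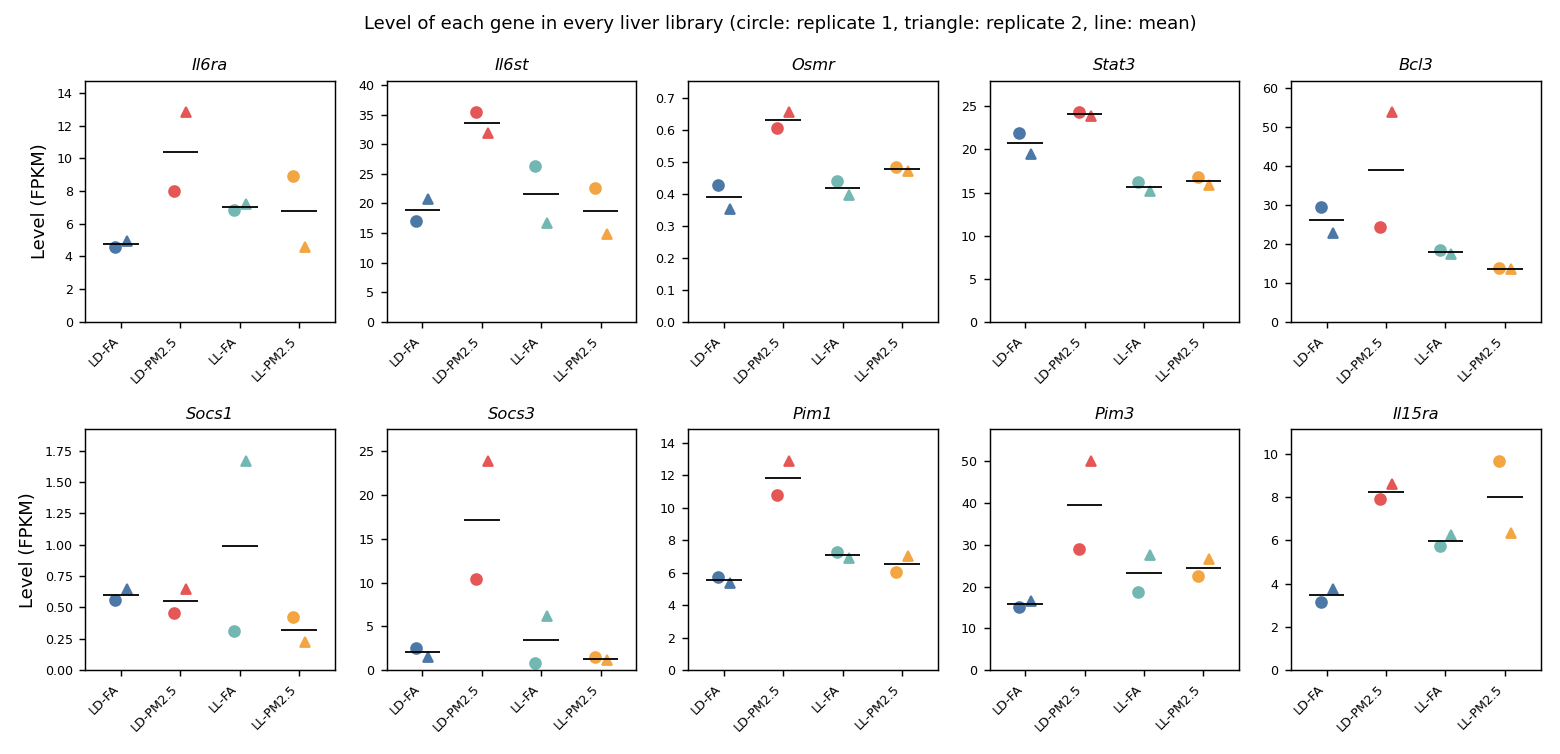
FPKM of each of the 10 genes (vertical axes, from 0, a separate scale for each gene) in the 8 liver libraries by group, with replicate 1 as a circle, replicate 2 as a triangle and the group mean as a line. LD-PM2.5 has the highest mean for 9 of the 10 genes, the exception being Socs1, and the 4 constant-light points of Stat3 and of Bcl3 lie below their 4 light/dark points.

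Among the receptor chains, Il6ra (chromosome 3, 89864059 to 89913196, minus strand), the chain that binds IL-6, measured 4.60 and 4.94 FPKM (LD-FA), 8 and 12.8 (LD-PM2.5), 6.86 and 7.23 (LL-FA) and 8.91 and 4.60 (LL-PM2.5). LD-FA was lowest, and LL-PM2.5 reached from the LD-FA level to above the LL-FA level. Il6st (chromosome 13, 112464070 to 112510086, plus strand), which encodes gp130, measured 17.1 and 20.7 FPKM (LD-FA), 35.4 and 31.9 (LD-PM2.5), 26.4 and 16.7 (LL-FA) and 22.6 and 14.8 (LL-PM2.5). The 2 LD-PM2.5 libraries exceeded all others, and the remaining 3 groups overlapped. Osmr (chromosome 15, 6813577 to 6874969, minus strand), the oncostatin M receptor, was scarce, at 0.427 and 0.354 FPKM (LD-FA), 0.607 and 0.655 (LD-PM2.5), 0.442 and 0.397 (LL-FA) and 0.485 and 0.473 (LL-PM2.5), from 74 to 123 fragments per library. LD-PM2.5 was highest, as for Il6st, and LL-PM2.5 lay above LL-FA.

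Stat3 (chromosome 11, 100885098 to 100939540, minus strand) measured 21.9 and 19.5 FPKM (LD-FA), 24.3 and 23.9 (LD-PM2.5), 16.2 and 15.2 (LL-FA) and 16.8 and 15.9 (LL-PM2.5). The light/dark groups lay above the constant-light groups without overlap, and the 2 constant-light groups overlapped. Bcl3 (chromosome 7, 19808462 to 19822770, minus strand), an inhibitor-of-kappa-B family protein that binds NF-kB dimers in the nucleus, measured 29.5 and 22.7 FPKM (LD-FA), 24.3 and 53.7 (LD-PM2.5), 18.4 and 17.4 (LL-FA) and 13.7 and 13.5 (LL-PM2.5). The high LD-PM2.5 mean rested on replicate 2, the light/dark groups overlapped, and LL-PM2.5 was lowest. The end of Stat3 overlaps that of Stat5a on the opposite strand, and Bcl3 overlaps the antisense gene Gm16174, and the strandedness of the counting was not given in the sources used here. Stat5a held 284 to 499 fragments and Gm16174 12 to 29, against 1949 to 3858 for Stat3 and 614 to 1899 for Bcl3.

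Socs3 (chromosome 11, 117966079 to 117970047, minus strand), the feedback brake that STAT3 itself induces, varied most. It measured 2.56 and 1.48 FPKM (LD-FA), 10.4 and 23.9 (LD-PM2.5), 0.817 and 6.16 (LL-FA) and 1.45 and 1.21 (LL-PM2.5). LD-PM2.5 exceeded every other library, and LL-FA replicate 2 stood above its partner. Socs1 (chromosome 16, 10782240 to 10785536, minus strand), a related brake best known for limiting interferon signalling, was near the limit of measurement, with 4 to 24 fragments per library and 0.223 to 1.67 FPKM. Its highest level was also in LL-FA replicate 2, and the LL-FA libraries, at 0.311 and 1.67 FPKM, enclosed both light/dark groups, with LL-PM2.5 at 0.425 and 0.223.

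The Pim kinases promote survival and growth by phosphorylating, among others, the cell death protein BAD. Pim1 (chromosome 17, 29490753 to 29496112, plus strand) measured 5.76 and 5.40 FPKM (LD-FA), 10.8 and 12.9 (LD-PM2.5), 7.31 and 6.89 (LL-FA) and 6.03 and 7.02 (LL-PM2.5). Pim3 (chromosome 15, 88862186 to 88865726, plus strand) measured 15.0 and 16.5 FPKM (LD-FA), 29.0 and 50.1 (LD-PM2.5), 18.7 and 27.6 (LL-FA) and 22.5 and 26.6 (LL-PM2.5). For both kinases LD-PM2.5 was highest and LD-FA lowest without overlap, and the 2 constant-light groups lay between them and overlapped. Per length, Pim3 was the more abundant of the pair in every library. Pim1 overlaps the antisense gene Gm26885, which held 1 to 17 fragments against 386 to 793 for Pim1.

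Il15ra (chromosome 2, 11705290 to 11734317, plus strand), which presents interleukin-15 to neighbouring lymphocytes, measured 3.15 and 3.77 FPKM (LD-FA), 7.91 and 8.61 (LD-PM2.5), 5.73 and 6.24 (LL-FA) and 9.68 and 6.36 (LL-PM2.5). In each light regime both PM2.5 libraries lay above both filtered-air libraries, as they also did for the scarce Osmr. They did so for none of the other 8 genes. In the light/dark cycle this was the pattern that selected Il15ra, and it held for 24.6% of all tested genes. In constant light it held for 9.65%. Interleukin-15 itself (Il15) stood at 0.232 to 0.665 FPKM and was not tested.

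Short sequences upstream of the start sites of these genes were searched for the letters that STAT dimers bind, because the genes are known as a STAT3 circuit, and for the E-box letters bound by basic helix-loop-helix factors, because light was varied. RefSeq windows of 250 bases upstream on GRCm38.p6 were available for all 10 genes, 12 windows in all, and were read on both strands. The windows of Socs3 (117969367 to 117969616) and Osmr (6874314 to 6874563) lie inside the GENCODE vM21 gene. So do those of the second starts of Pim1 and Il15ra. Bases upstream of the GENCODE starts of Socs3 and Osmr were not searched. The STAT letters TTCNNNGAA occurred in 1 of the 12, beside 7.02% of 32851 promoters of the same length. The match was that of Socs3, at position -154 from its RefSeq start. The narrower letters TTCCNGGAA, each match of which is also a match of TTCNNNGAA, occurred in 0 of the 12, beside 0.913% of all. The E-box CACGTG occurred in 2, at position -24 for Il6ra and -58 for the second start of Pim1, beside 6.02% of all. The matches are shown in the direction of each gene with 10 bases on each side and the searched letters in capitals. They lie at chr11:117969502-117969530 for Socs3 (an intron of GENCODE vM21), chr3:89913205-89913230 for Il6ra (outside the gene) and chr17:29493017-29493042 for Pim1 (an exon of GENCODE vM21). A match of letters is a description and not a binding site.
Socs3: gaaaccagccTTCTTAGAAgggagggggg
Il6ra: tgctgtgtgtCACGTGcatgtgggaa
Pim1: aaacaggaatCACGTGgtctgaaacc
Pim3, Il15ra, Il6st, Bcl3 and Stat3 had none of these letters in their windows.

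PM2.5 in the light/dark cycle is the contrast that singled out Pim1, Pim3 and Il15ra. The groups did not overlap, with PM2.5 higher, in 8 of the 10 genes, and this held for 24.6% of all tested genes. Osmr, among these 8, was not one of the tested genes. PM2.5 was lower without overlap in 0 of the 10, beside 18.7%. The fitted log2 fold changes were largest for Socs3 at 3.12 ± 0.81 (SE), followed by Pim3 at 1.35 ± 0.20, Il15ra at 1.25 ± 0.21, Pim1 at 1.09 ± 0.16, Il6ra at 0.98 ± 0.28, Il6st at 0.71 ± 0.18, Bcl3 at 0.60 ± 0.33 and Stat3 at 0.20 ± 0.12. The messages of the receptors, the feedback brake and the kinases had larger fitted values than that of STAT3 itself. Over all genes edgeR's adjusted test called 0 of 11316 (0%), against 1240 (11%) at an unadjusted p below 0.05 and 151 (1.33%) by DESeq2. LD-PM2.5 replicate 2 had the higher Il6ra, Socs3, Pim1, Pim3, Bcl3 and Il15ra of its pair, and without it Il6ra stood at 0.62 and Bcl3 at -0.00.

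The summed level of neutrophil markers, but not that of each marker, was higher in LD-PM2.5 than in LD-FA. Their sum over 7 genes was 7.02 and 13.9 FPKM in LD-PM2.5, against 4.10 to 6.58 in LD-FA and 3.75 to 5.85 in the constant-light libraries. The sum came mainly from S100a8 and S100a9, at 6.01 and 6.41 FPKM in LD-PM2.5 replicate 2. The defining markers Ly6g, Mpo and Ngp were at or near 0 in every library. Retnlg overlapped, at 0.302 and 1.42 FPKM in LD-PM2.5 against 0.751 and 0.324 in LD-FA. Elane overlapped too, at 0.163 and 0 FPKM against 0.0875 and 0.165. Macrophage markers summed to 170 and 138 FPKM in LD-PM2.5, inside the range of 120 to 178 over all libraries. Other sums were lower in LD-PM2.5 than in LD-FA without overlap, with red blood cell markers at 107 and 115 FPKM against 227 and 148, B and plasma cell markers at 3.05 and 1.78 against 6.9 and 3.5, hepatocyte markers at 14042 and 13908 against 18212 and 15411, and muscle markers at 0.579 and 0.87 against 269 and 30.8. The hepatocyte markers did not move as 1 set. Apoa1 and G6pc were lower in LD-PM2.5 than in LD-FA without overlap, and Ttr, Tat and Apob overlapped. Cps1 was higher, at 717 and 764 FPKM against 650 and 677. The part of these cells in the levels of the 10 genes was not tested.

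PM2.5 in constant light shares no library with the contrast above and is where the 8 genes that passed the filter could be tested. Il15ra, at 0.43 ± 0.21 with a 95% interval from -0.06 to 0.91, and Osmr were the 2 genes with PM2.5 higher without overlap, beside 9.65% of all tested genes. Leaving out LL-PM2.5 replicate 1 brought Il15ra to 0.18. Bcl3, at -0.39 ± 0.33 with an interval from -1.17 to 0.38, was the 1 with PM2.5 lower, beside 11.6%. Pim1 differed by -0.11 ± 0.16 with an interval from -0.48 to 0.25, and Pim3 by 0.09 ± 0.20 with an interval from -0.37 to 0.55. Il6ra differed by -0.01 ± 0.27, Il6st by -0.16 ± 0.18 and Stat3 by 0.05 ± 0.12. Socs3 differed by -1.32 ± 0.79, but LL-FA replicate 2 decided that sign, and without it the value was 0.60. Adjusted p-values of the 8 genes lay between 0.989 and 1 with edgeR's quasi-likelihood test and Benjamini-Hochberg adjustment. That test called 0 of 11316 genes (0%), with 547 (4.83%) at an unadjusted p below 0.05 and 58 (0.513%) by DESeq2, none of them among the 8. Without the filter on low values edgeR called Socs3 at -1.33 (adjusted p = 0.0104, against 0.689 to 1 under the other alternatives), the value whose sign turned without LL-FA replicate 2.

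**Figure D2:**
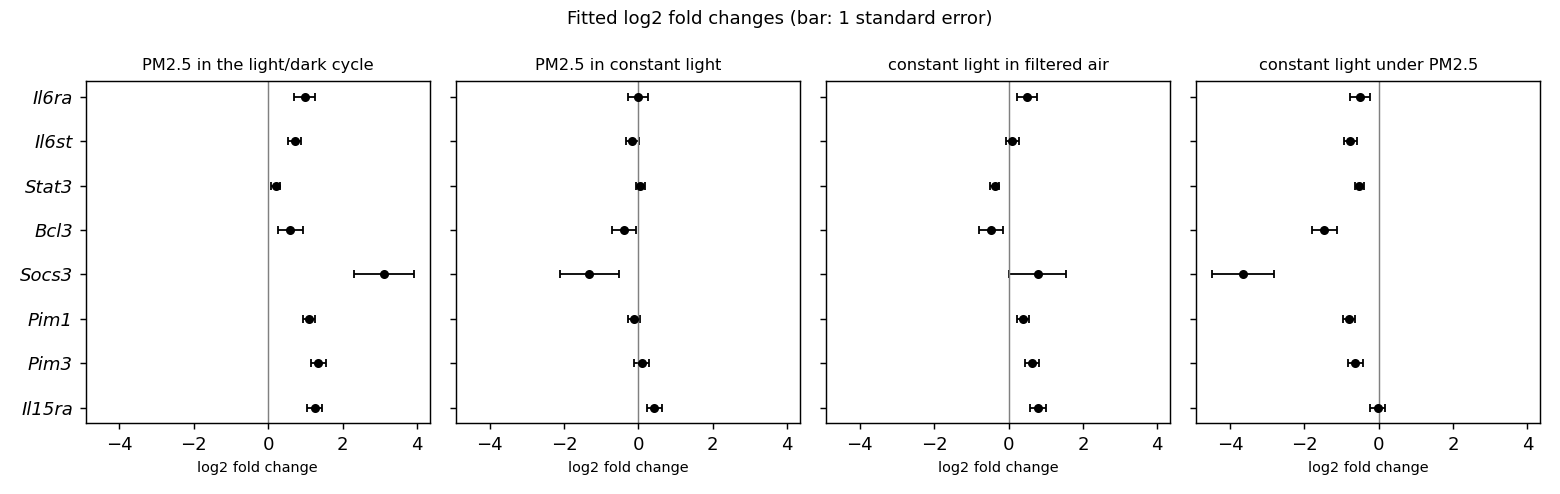
Fitted log2 fold change (horizontal axes) of the 8 tested genes in 4 comparisons, as points with bars of 1 standard error. All 8 points lie above 0 with PM2.5 under light/dark, most lie near 0 for PM2.5 in constant light, and Socs3 has the longest bars.

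The difference between the PM2.5 changes in the 2 light regimes was negative for all 8 tested genes, meaning a smaller or opposite change in constant light. It was -4.44 ± 1.12 on the log2 scale for Socs3, -1.26 ± 0.28 for Pim3, -1.20 ± 0.22 for Pim1, -1.0 ± 0.39 for Il6ra, -0.99 ± 0.47 for Bcl3, -0.86 ± 0.25 for Il6st, -0.82 ± 0.29 for Il15ra and -0.15 ± 0.17 for Stat3. One of the 2 changes in this difference is the one that singled out 3 of the genes, so the values are a description. Over all genes edgeR's adjusted test called 0 of 11316 (0%), with 552 (4.88%) at an unadjusted p below 0.05 and 33 (0.292%) by DESeq2. Without LL-FA replicate 2 the Socs3 value was -2.51, and without LD-PM2.5 replicate 2 that of Bcl3 was -0.39.

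Constant light in filtered air shares the LD-FA libraries with the first contrast, so that a low LD-FA value enters both. Constant light was higher without overlap for 4 of the 10 genes (10.7% of all tested genes), Il6ra at 0.49 ± 0.27, Pim1 at 0.39 ± 0.16, Pim3 at 0.63 ± 0.20 and Il15ra at 0.79 ± 0.21. It was lower for 2 (11.3% of all tested genes), Stat3 at -0.37 ± 0.12 and Bcl3 at -0.47 ± 0.33, the latter -0.19 without LD-FA replicate 1. Il6st differed by 0.10 ± 0.18, and Socs3 by 0.78 ± 0.77 with all libraries and by -1.13 without LL-FA replicate 2. The adjusted p was 1 for Il6ra, Il6st, Stat3, Bcl3 and Socs3 with edgeR's quasi-likelihood test and Benjamini-Hochberg adjustment. It called 0 of 11316 genes (0%), with 310 (2.74%) at an unadjusted p below 0.05 and 43 (0.38%) by DESeq2, none of them among the 8.

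Under PM2.5, where the LD-PM2.5 libraries are shared with the first contrast, constant light was lower without overlap for 8 of the 10 genes, beside 18.3% of all tested genes, and higher for 0, beside 12.3%. The exceptions were Il6ra at -0.50 ± 0.27 and Il15ra at -0.03 ± 0.21, which overlapped. Of the 8, Osmr and Socs1 were below the filter that defined the tested genes. Socs1 rested on 10 and 4 fragments in LL-PM2.5 against 10 and 9 in LD-PM2.5. Socs3 differed by -3.66 ± 0.83 and Bcl3 by -1.46 ± 0.34, each with an adjusted p of 0.394 by edgeR's quasi-likelihood test with Benjamini-Hochberg adjustment. Il6st differed by -0.76 ± 0.18 and Stat3 by -0.52 ± 0.12, also at an adjusted p of 0.394 in edgeR, while Pim1 stood at -0.81 ± 0.16 and Pim3 at -0.63 ± 0.20. Pim1 and Pim3 are given without a test, since their LD-PM2.5 level selected them. DESeq2 called 139 genes (1.23% of all tested genes), among them Bcl3 (adjusted p = 0.000802), Il6st (0.0139), Socs3 (0.0177) and Stat3 (0.0491). Over all alternatives the adjusted p-values of these 4 genes ran from 3.03e-12, for Socs3 in edgeR without the filter, to 0.834, for Il6st without LD-PM2.5 replicate 2. The edgeR test called 0 of 11316 (0%), with 1044 (9.23%) at an unadjusted p below 0.05. Without LD-PM2.5 replicate 2 the value was -0.85 for Bcl3, -0.31 for Pim3 and -0.13 for Il6ra.

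Averaged over both kinds of air, a comparison added after the levels had been seen, constant light was lower without overlap of the 4 against 4 libraries for Stat3 and Bcl3, 2 of the 10 genes beside 1.56% of all tested genes, and higher for 0, beside 0.68%. Stat3 differed by -0.45 ± 0.08 with an interval from -0.64 to -0.25, a level 0.733 times that of the light/dark cycle, and lower in 4 of 4 libraries (edgeR adjusted p = 0.295). Across the alternatives and left-out libraries this value lay between -0.49 and -0.40, and its adjusted p between 0.00662, by DESeq2, and 0.998. Bcl3 differed by -0.97 ± 0.24 with an interval from -1.52 to -0.42 (edgeR adjusted p = 0.554), and its values lay between -1.17 and -0.65. DESeq2 called Bcl3 at an adjusted p of 0.0027, and over all alternatives its adjusted p ran from 7.95e-06 without the filter to 1. Socs3, at -1.44 ± 0.55, and Il6st, at -0.33 ± 0.12, overlapped between the regimes, each at an edgeR adjusted p of 0.86. Il15ra, at 0.38 ± 0.15, overlapped too and is given without a test, since its light/dark levels selected it. The edgeR test called 0 of 11316 genes (0%), with 641 (5.66%) at an unadjusted p below 0.05 and 92 (0.813%) by DESeq2.

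Of 9 IL-6 type ligands, the cytokines that feed this pathway, 8 were too low to be tested. Il6 stood at most at 0.0601 FPKM, Osm at 0.0366, Lif at 0.0327, Il11 at 0.0724, Il27 at 0.0685, Clcf1 at 0.351 and Cntf at 1.08, and only cardiotrophin Ctf1, at 3.96 to 7.87 FPKM, could be tested. Ctf1 differed by 0.36 with PM2.5 in constant light, by 0.10 with PM2.5 in the light/dark cycle, by 0.39 with constant light in filtered air, by 0.65 with constant light under PM2.5 and by 0.52 in the average. Of 10 other receptors and relays 9 were tested, and their median log2 fold change lay between -0.23 and 0.12 in the comparisons. With PM2.5 in the light/dark cycle the leukaemia inhibitory factor receptor Lifr stood at 0.38 ± 0.16 and the kinase Jak1 at 0.25 ± 0.13. The growth hormone relays Stat5a and Stat5b stood at -0.43 ± 0.21 and -0.46 ± 0.15 with PM2.5 in constant light, and at -0.61 ± 0.21 and -0.37 ± 0.15 with constant light under PM2.5. In filtered air Stat5a stood at 0.16 ± 0.21 with constant light, and in the average Stat5b stood at -0.21 ± 0.11 and Jak1 at -0.15 ± 0.09. With the filter on low values, edgeR called no gene of this list or of those below in any comparison of all 8 libraries, while edgeR without the filter called some, such as Cish with PM2.5 in constant light (adjusted p = 3.22e-08).

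All 12 other brakes on JAK/STAT signalling were tested. With PM2.5 in the light/dark cycle 11 of the 12 had positive log2 fold changes, with a median of 0.21 against -0.01 over all genes, and with PM2.5 in constant light 5 of 12, with a median of -0.01 against 0.00. The 2 STAT5-induced members moved with single libraries. Cish measured 24.9 FPKM in LL-FA replicate 2 and 0.392 to 3.09 in the other 7 libraries, and Socs2 measured 10.6 FPKM there, 11.7 in LD-PM2.5 replicate 1 and 0.748 to 4.43 elsewhere. The growth gene Myc, in the list of other STAT3 targets, also reached 14.5 FPKM in LL-FA replicate 2 against 0.857 to 1.98 elsewhere. Socs3 and Socs1 were high in the same LL-FA library. The fitted value of Cish was accordingly 3.57 ± 1.41 with constant light in filtered air and -0.77 without that library, and -4.18 ± 1.47 with PM2.5 in constant light and 0.17 without it. Other values of smallest p in this list were Socs2 at 2.85 ± 1.10 (0.51 without LD-PM2.5 replicate 1) and Socs7 at 0.39 ± 0.18 with PM2.5 in the light/dark cycle, Ptpn2 at 0.24 ± 0.14 with PM2.5 in constant light, Socs2 at 2.96 ± 1.10 (1.21 without LL-FA replicate 2) with constant light in filtered air, and Ptpn1 at -0.26 ± 0.12 and Socs7 at -0.36 ± 0.18 with constant light under PM2.5.

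**Figure D3:**
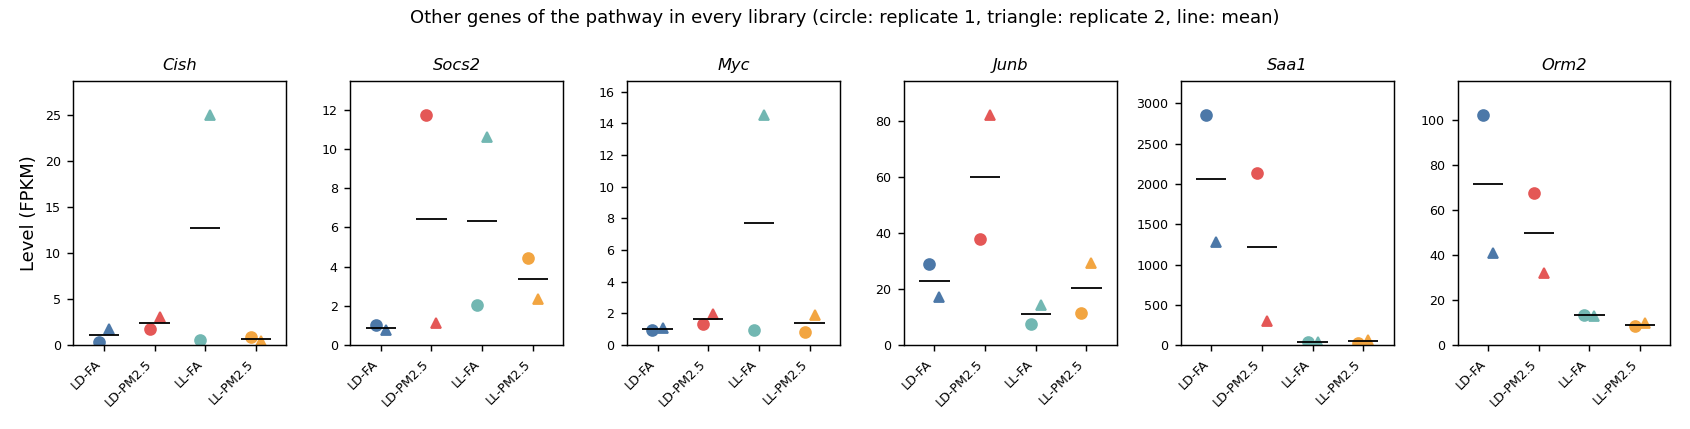
FPKM (vertical axes, from 0, a separate scale for each gene) of 6 further genes of the pathway in the 8 libraries, with replicate 1 as a circle, replicate 2 as a triangle and the mean as a line. Cish and Myc are high in LL-FA replicate 2, Junb is highest in LD-PM2.5 replicate 2, and Saa1 and Orm2 are low in all 4 constant-light libraries.

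Of 14 other STAT3 target genes 12 were tested, and with PM2.5 in the light/dark cycle 10 of 12 had positive values, with a median of 0.68 against -0.01 over all genes. The NF-kB co-factor Nfkbiz stood at 1.01 ± 0.20 and the interferon regulatory factor Irf1 at 0.98 ± 0.20. With PM2.5 in constant light 7 of 12 were positive, with a median of 0.14, and the cell-cycle gene Ccnd1 stood at 1.07 ± 0.34, or 0.48 without LL-PM2.5 replicate 2. With constant light under PM2.5 9 of 12 were negative, with a median of -0.90 against 0.01, which was -0.46 without LD-PM2.5 replicate 2. There Nfkbiz, at 3.8 and 4.02 FPKM in LD-PM2.5 and 1.40 and 0.980 in LL-PM2.5, differed by -1.70 ± 0.20, the smallest unadjusted p of all 11316 genes (edgeR adjusted p = 0.349). The adhesion molecule Icam1 differed by -1.68 ± 0.32 (edgeR adjusted p = 0.366). In filtered air constant light gave Myc 2.93 ± 0.98, from LL-FA replicate 2, and Fos -2.59 ± 0.88, or -0.96 without LD-FA replicate 1. In the average 11 of 12 were negative, with a median of -0.49, and Nfkbiz stood at -1.11 ± 0.14 (edgeR adjusted p = 0.15) and Icam1 at -1.22 ± 0.22 (0.267).

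Of 20 acute phase genes, the classical output of STAT3 in hepatocytes, 19 were tested. With PM2.5 in the light/dark cycle 5 of 19 were positive and 14 negative, with a median of -0.11 against -0.01 over all genes. Without overlap 0 of the 19 were higher, beside 24.6% of all tested genes, and 0 lower, beside 18.7%. LD-PM2.5 replicate 2, highest of all libraries for Socs3, Pim3, Bcl3, Junb (82.1 FPKM) and Cebpb (226 FPKM), was the lowest of the 4 light/dark libraries for 12 of the 19, among them Saa1 (303 FPKM), Saa2 (162 FPKM), Lcn2 (9.53 FPKM) and Apcs (32.9 FPKM), and the highest of the 4 for 2, Lbp (38.1 FPKM) and Hamp (3025 FPKM). The matching shares over all tested genes are not given here, so these counts from 1 library are a description. Junb, Cebpb, Saa2, Lcn2, Apcs, Lbp and Hamp were named for this library after their values were seen. With PM2.5 in the light/dark cycle Orm1 stood at -0.44 ± 0.24 and the iron hormone Hamp at 1.01 ± 0.64, which was -0.66 without LD-PM2.5 replicate 2. In constant light with PM2.5, Lbp stood at -0.42 ± 0.17 (-0.24 without LL-PM2.5 replicate 2) and Crp at 0.23 ± 0.14, and the median was 0.06.

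With constant light 18 of 19 acute phase genes were negative in filtered air and 17 of 19 under PM2.5, with medians of -0.77 and -0.60 against 0.00 and 0.01 over all genes. Stat3 was also lower in constant light, whereas with PM2.5 in the light/dark cycle it stood at 0.20 and the acute phase median at -0.11. A link between Stat3 and these genes was not tested. In the average 8 of 19 were lower without overlap, beside 1.56% of all tested genes. Serum amyloid Saa1 measured 2851 and 1281 FPKM (LD-FA), 2134 and 303 (LD-PM2.5), 39.9 and 43.7 (LL-FA) and 30.9 and 68.5 (LL-PM2.5). It differed by -5.62 ± 0.98 in filtered air (edgeR adjusted p = 0.649) and by -4.59 ± 0.93 under PM2.5 (0.366), or -2.63 without LD-PM2.5 replicate 1. Orm2 differed by -2.43 ± 0.45 (0.79) and -2.44 ± 0.45 (0.366). In the average Saa1 stood at -5.10 ± 0.67 and Orm2 at -2.44 ± 0.32, each at an edgeR adjusted p of 0.15, and DESeq2 called both (4.6e-11 and 1.82e-16). Over all alternatives their adjusted p-values ran from 1.59e-24 to 0.637 and from 2.19e-18 to 0.573, the lowest in edgeR without the filter.

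**Figure D4:**
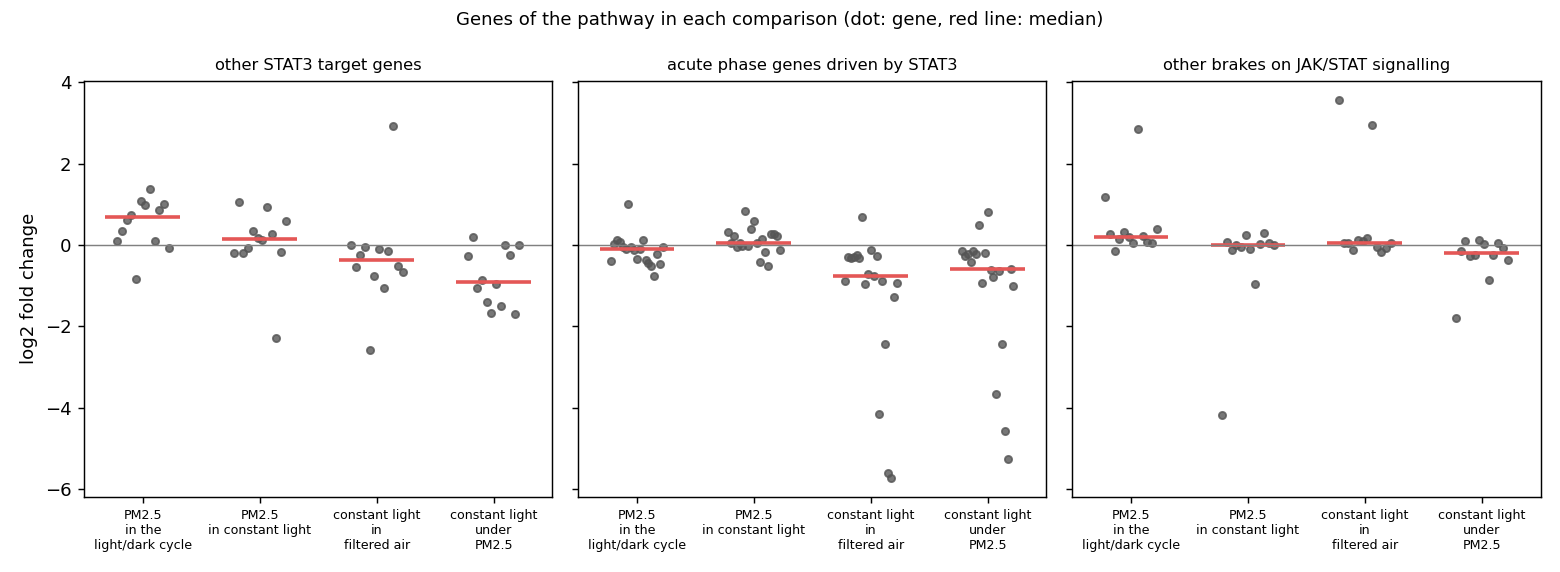
Fitted log2 fold change (vertical axis) of each tested gene (dots) of 3 pathway lists in 4 comparisons, with the median of each list as a red line. Other STAT3 targets have a median of 0.68 with PM2.5 in the light/dark cycle, where the acute phase genes have -0.11, and the lowest points of the acute phase panel belong to both constant-light comparisons.

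Partners of the Pim kinases, Bcl3 and Il15ra completed the lists, with 8 of 10 tested. The NF-kB subunits Relb and Nfkb2, the latter a binding partner of Bcl3, stood at 1.44 ± 0.33 and 0.94 ± 0.23 with PM2.5 in the light/dark cycle and at -1.58 ± 0.33 and -0.93 ± 0.23 with constant light under PM2.5. With PM2.5 in constant light Rela stood at -0.18 ± 0.10 and Nfkb2 at 0.35 ± 0.24, or 0.01 without LL-PM2.5 replicate 2. In filtered air the Pim substrate Bad stood at -0.22 ± 0.15 and Nfkb2 at -0.34 ± 0.24 with constant light, or -0.03 and -0.19 without LD-FA replicate 1. In the average Relb stood at -0.98 ± 0.24 and Nfkb2 at -0.63 ± 0.17. The list medians were 0.16, 0.07, -0.13, -0.25 and -0.14 with PM2.5 in the light/dark cycle, PM2.5 in constant light, constant light in filtered air, constant light under PM2.5 and the average.

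The genes whose levels followed the members most closely over the 8 libraries were sought among 6436 genes with a mean of at least 5 FPKM, by the Pearson correlation of log2 CPM (counts scaled to library size). The 8 points share libraries, depth and tissue composition, so the values are a description. Stat3 was followed most closely by Prg4 (0.963), Metap1 (0.957) and Rpl7l1 (0.953), and Prg4 also had its 4 lowest levels, 4.94 to 7.49 FPKM, in constant light. Socs3 was followed by Snx10 (0.964), Ube2f (0.960) and Steap4 (0.944), the last at 106 and 98.9 FPKM in LD-PM2.5 against 32 to 68.9 elsewhere. Pim1 was followed by Pxk (0.960), Lsg1 (0.956) and Ranbp9 (0.937), and Pim3 by Pi4k2b (0.968), Rn7sk (0.948) and Atl2 (0.948).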

How the data were processed

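Per the submitters' processing notes, reads were processed with STAR, Cufflinks and Cuffdiff on mm10; versions, options and annotation were not given in the sources used here. Per the file headers, the deposited table gives for each gene and library FPKM and fragments as an expected count (an estimated count that need not be whole), both made by the authors. Of the fragment values above 0, 97.4% lay within 0.01 of a whole number, and all were rounded for testing. Of 48432 gene IDs, 48051 matched a symbol; 47 genes without an estimate in some library (1.07% of fragments) were left out, and entries with the same symbol were added.

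One edgeR 4.0.16 model (R 4.3.3; TMM scaling, quasi-likelihood test) fitted to the means of the 4 groups, with 4 degrees of freedom left over, gave every comparison. The biological coefficient of variation was 21.4% and the prior degrees of freedom 3.46. SE is the absolute log2 fold change over the square root of F; 95% intervals used 7.46 degrees of freedom. The script was tested on simulated data. DESeq2 1.42.0 (Wald test) and limma 3.58.1 were alternatives, with other filters, scaling, a replicate block and each library left out. Libraries of a group differed far beyond counting noise (chi-square per degree of freedom 41.3 to 88). Statements that groups do not overlap use FPKM; on TMM-scaled CPM, 49 of 50 gene and comparison pairs had the same status, the exception being Osmr with constant light in filtered air.

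Members and lists were chosen with earlier results of these data known. Named were all 10 members, from each list the 2 tested genes of smallest p per comparison, and for 4 members the 3 most correlated genes; Cish, Socs2, Myc, Junb, Cebpb, Saa2, Lcn2, Apcs, Lbp and Hamp were also named by library after their values were seen. Gene positions are from GENCODE vM21 (GRCm38, the mm10 build), matched by ID without version. One gene that this rule names is not reported here. ATAC-seq was not analysed here.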

Additional observations from a re-analysis of the deposited data

How the results depend on the processing

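All 6 counts of genes past the adjusted threshold were 0 and depended on the test. In the order PM2.5 in constant light, PM2.5 in the light/dark cycle, constant light in filtered air, constant light under PM2.5, the difference between the PM2.5 changes, and the average of constant light, edgeR without the filter (23005 genes, prior degrees of freedom 64.1) called 449, 594, 193, 324, 222 and 279 genes, and DESeq2 58, 151, 43, 139, 33 and 92. Limma on log2(FPKM + 1) called 1, 0, 0, 1, 2 and 1. With each library left out in turn the counts ran from 0 to 10, 0 to 36, 0 to 0, 0 to 4, 0 to 0 and 0 to 1. The 10 and the 4 came without LL-PM2.5 replicate 1, the 36 without LD-PM2.5 replicate 1. Without the first replicates of both FA groups, chosen after seeing the data, PM2.5 in the light/dark cycle gave 1 call and the others 0. Causes were not tested.

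Of 720 values of the 8 tested genes under alternatives (Osmr and Socs1 entered only the fit without the filter), 672 kept direction and side of the threshold, 31 passed it and 17 changed sign, 16 of them with libraries left out. Passes with PM2.5 in the light/dark cycle included 6 in edgeR without the filter and 5 by DESeq2. Pim1, Pim3 and Il15ra were among both, and that contrast selected them, so these passes are a description. So are those of the difference between the PM2.5 changes, 3 in edgeR without the filter and 2 by DESeq2, and those of Pim1 with constant light under PM2.5. The ranges over left-out libraries that crossed 0 were, for PM2.5 in constant light, Stat3 -0.01 to 0.11, Il6ra -0.37 to 0.27, Il6st -0.34 to 0.04, Socs3 -2.14 to 0.60, Pim1 -0.27 to 0.03 and Pim3 -0.03 to 0.21. Others were Bcl3 -0.00 to 1.02 with PM2.5 under light/dark, Il6st -0.09 to 0.29 and Socs3 -1.13 to 1.60 for constant light in filtered air, and Il15ra -0.27 to 0.18 for constant light under PM2.5. Without both FA replicates 1, Il6st stood at 0.05, Stat3 at 0.12 and Pim3 at -0.03 for PM2.5 in constant light, and Il6st at -0.24 and Socs3 at 2.04 for constant light in filtered air. Among list genes, leaving out a library gave ranges that crossed 0 for Cish (-5.15 to 0.17, PM2.5 in constant light, and -0.77 to 4.97, constant light in filtered air), Myc (-3.20 to 0.40, PM2.5 in constant light), Hamp (-0.66 to 1.75, PM2.5 under light/dark), Ctf1 (-0.10 to 0.27, PM2.5 under light/dark; -0.00 without both FA replicates 1) and Stat5a (-0.11 to 0.41; -0.16 without both FA replicates 1, constant light in filtered air).

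Differences between replicates 1 and 2 correlated between groups at -0.585 to 0.334. Transcripts of neighbouring tissue also differ between replicates, so these values cannot decide whether the numbers mark pairs or a batch. The replicate block called 0 genes in each comparison and moved Il6ra with PM2.5 in constant light from -0.01 to 0.00. With 2 libraries a group, and 4 to 24 fragments for Socs1, small changes were not detectable.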
